A study of Mus musculus with 9 samples.

Results

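The members described here are the RING1B peaks of mouse embryonic stem cells (mESCs) whose nearest gene is a noncoding RNA. They were taken from the deposited peak lists by a single criterion, a RefSeq identifier of the nearest gene that starts with NR_, the prefix of RefSeq noncoding transcripts. In Eed+/+ cells 27 of 2347 peaks met it, which is 1.15% of the list, and in Eed-/- cells 12 of 1810 peaks did, which is 0.663%. Together these are 39 of 4157 peaks, which carry 23 gene names. The members were to be split into microRNA genes, whose name starts with Mir, and other noncoding genes, but 0 of the 39 peaks and 0 of all 4157 carry such a name, so every member is of the second kind.

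RING1B was immunoprecipitated from cells fixed with EGS, a protein crosslinker, and then formaldehyde, using a monoclonal antibody to mouse Ring1B. The cells were C57BL/6 mESCs grown with leukemia inhibitory factor and serum, either wild type (Eed+/+) or knockout for Eed (Eed-/-). The Eed+/+ immunoprecipitate had 16814546 mapped tags and the Eed-/- immunoprecipitate 70343706, which is 4.18 times as many. Of the 9 labelled samples, 1 is Eed+/+ RING1B, 3 are Eed-/- RING1B and 3 are input from Eed+/+ cells, and the CBX7 samples were not analysed here. The labels number the 3 Eed-/- samples as replicates while the methods describe sequencing lanes, and they were deposited as 1 list. Each genotype has 1 list, so no value below has a replicate error and no difference between the genotypes was tested.

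RING1B is the catalytic subunit of Polycomb repressive complex 1 (PRC1), which attaches a single ubiquitin to histone H2A. EED is a core subunit of Polycomb repressive complex 2 (PRC2), and cells without it lack trimethylation of histone H3 lysine 27 (H3K27me3), the mark read by the CBX proteins of canonical PRC1. In mESCs both complexes sit mainly at CpG islands of developmental genes that are kept silent. Many such genes, in particular those for homeobox factors, are flanked by divergent or antisense long noncoding RNAs that share the same island.

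The sequence under the summit, the point of highest tag pile-up in a peak, differed widely between members. The 200 bases around 8 summits are printed below from the mouse genome NCBIM37 (mm9), on the plus strand and with each CG dinucleotide in capitals. They were chosen to show dense and sparse examples that lie outside annotated coding UTRs. The first 3 are CG-dense summits of Eed-/- peaks, and the next is a CG-poor Eed-/- summit. The last 4 come from Eed+/+ peaks without an Eed-/- counterpart.
Dio3os (Eed-/-): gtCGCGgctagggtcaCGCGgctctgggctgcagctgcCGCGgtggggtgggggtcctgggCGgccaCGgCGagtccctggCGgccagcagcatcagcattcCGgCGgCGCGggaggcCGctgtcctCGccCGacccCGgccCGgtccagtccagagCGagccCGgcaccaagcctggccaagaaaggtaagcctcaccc
Pax6os1 (Eed-/-): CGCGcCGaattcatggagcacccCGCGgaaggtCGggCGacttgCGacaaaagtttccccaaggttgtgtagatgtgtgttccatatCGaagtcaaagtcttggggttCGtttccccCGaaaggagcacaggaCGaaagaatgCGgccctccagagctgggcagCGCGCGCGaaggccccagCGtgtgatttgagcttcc
Tug1 (Eed-/-): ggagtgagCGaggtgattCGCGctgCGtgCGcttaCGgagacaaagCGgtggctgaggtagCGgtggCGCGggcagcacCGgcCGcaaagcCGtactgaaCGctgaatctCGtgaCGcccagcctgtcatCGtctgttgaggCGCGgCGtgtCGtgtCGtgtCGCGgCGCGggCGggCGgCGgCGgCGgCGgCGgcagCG
Six3os1 (Eed-/-): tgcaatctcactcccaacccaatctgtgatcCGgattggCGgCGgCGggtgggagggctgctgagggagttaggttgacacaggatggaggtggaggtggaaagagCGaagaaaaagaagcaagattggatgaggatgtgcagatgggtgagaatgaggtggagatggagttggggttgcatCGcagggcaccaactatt
Foxl2os (Eed+/+): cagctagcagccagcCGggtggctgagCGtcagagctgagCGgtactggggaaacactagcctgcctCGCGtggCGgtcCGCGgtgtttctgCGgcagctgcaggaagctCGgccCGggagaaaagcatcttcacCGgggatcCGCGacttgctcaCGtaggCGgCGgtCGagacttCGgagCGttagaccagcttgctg
Dlx1as (Eed+/+): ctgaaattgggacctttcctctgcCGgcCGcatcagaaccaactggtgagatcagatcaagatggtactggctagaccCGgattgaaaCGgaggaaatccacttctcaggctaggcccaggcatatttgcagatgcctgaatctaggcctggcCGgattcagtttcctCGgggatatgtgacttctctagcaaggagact
9130024F11Rik (Eed+/+): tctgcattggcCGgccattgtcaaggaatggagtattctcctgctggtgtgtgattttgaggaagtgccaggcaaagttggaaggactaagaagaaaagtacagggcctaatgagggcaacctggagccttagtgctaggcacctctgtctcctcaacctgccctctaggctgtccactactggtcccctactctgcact
Aldoart2 (Eed+/+): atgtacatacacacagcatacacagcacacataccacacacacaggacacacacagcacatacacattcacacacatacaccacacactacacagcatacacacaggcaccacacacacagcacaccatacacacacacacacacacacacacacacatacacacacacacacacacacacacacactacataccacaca
The mouse chromosomes hold 1.67 CG per 200 bases on average. The window at the Tug1 peak holds 34, that at Dio3os 21 and that at Pax6os1 18. The Six3os1 window holds 6, the Foxl2os window 20, the Dlx1as window 6, the 9130024F11Rik window 1 and the Aldoart2 window 0. Positions and gene content of the windows follow. The Dio3os window is chr12:111425671-111425870, outside annotated genes. The Pax6os1 window (chr2:105509638-105509837) is where the Pax6os1 and Pax6 genes overlap and the Six3os1 window (chr17:86012434-86012633) in the Six3os1 gene. The Tug1 window (chr11:3549251-3549450) and the Aldoart2 window (chr12:56639491-56639690) are intergenic. The Foxl2os window (chr9:98852652-98852851), the Dlx1as window (chr2:71373305-71373504) and the 9130024F11Rik window (chr1:57037007-57037206) each lie within the gene they are named for.

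By RefSeq's current classification the 23 names are 16 long noncoding RNAs, 1 antisense RNA, 1 small nucleolar RNA, 3 transcribed pseudogenes and 2 that are listed as protein coding, Gnas and Aldoart2, whose deposited record was nevertheless a noncoding transcript. All 23 matched the RefSeq gene table, 21 by accession and 2 by symbol. Several deposited names have since changed. EG277333 is now Gm5069, OTTMUSG00000000185 is Rab11fip4os1, AI314831 is Wt1os, D030013I16Rik is Pisd-ps2, Dlx6as is Dlx6os2, Igf2as is Igf2os, and 449631 is Snord15b. Vax2os1 and Vax2os2 are now 1 gene, Vax2os, and are counted here as 2 deposited names. Of the 23 names 10 occur in both lists, 12 in the Eed+/+ list alone and 1, Tug1, in the Eed-/- list alone.

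RING1B levels are given as tags per kb of peak per 1000000 mapped tags, without subtraction of input. Across the 27 Eed+/+ members the level ran from 2.80 to 11.3 with a median of 5.47 (95% interval of the median from order statistics 4.10 to 6.75), beside a median of 4.80 over all 2347 Eed+/+ peaks. The 12 Eed-/- members ran from 1.09 to 2.65 with a median of 1.30, beside 1.32 over all 1810 Eed-/- peaks. The member levels of the genotypes do not overlap on this scale. Those of the whole lists do, running from 1.78 to 22.4 in Eed+/+ and from 0.849 to 7.01 in Eed-/-. Peaks of both lists had to pass the same minimum number of tags, and the Eed+/+ library was shallower. At a given width a peak therefore needed a higher level to be called in Eed+/+. How far this sets the gap between the members was not tested. In raw tags per kb of peak, which carry the difference in depth, the member medians were 91.9 in Eed+/+ and 91.5 in Eed-/-. The intervals here and below cover counting error over peaks only.

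**Figure D1:**
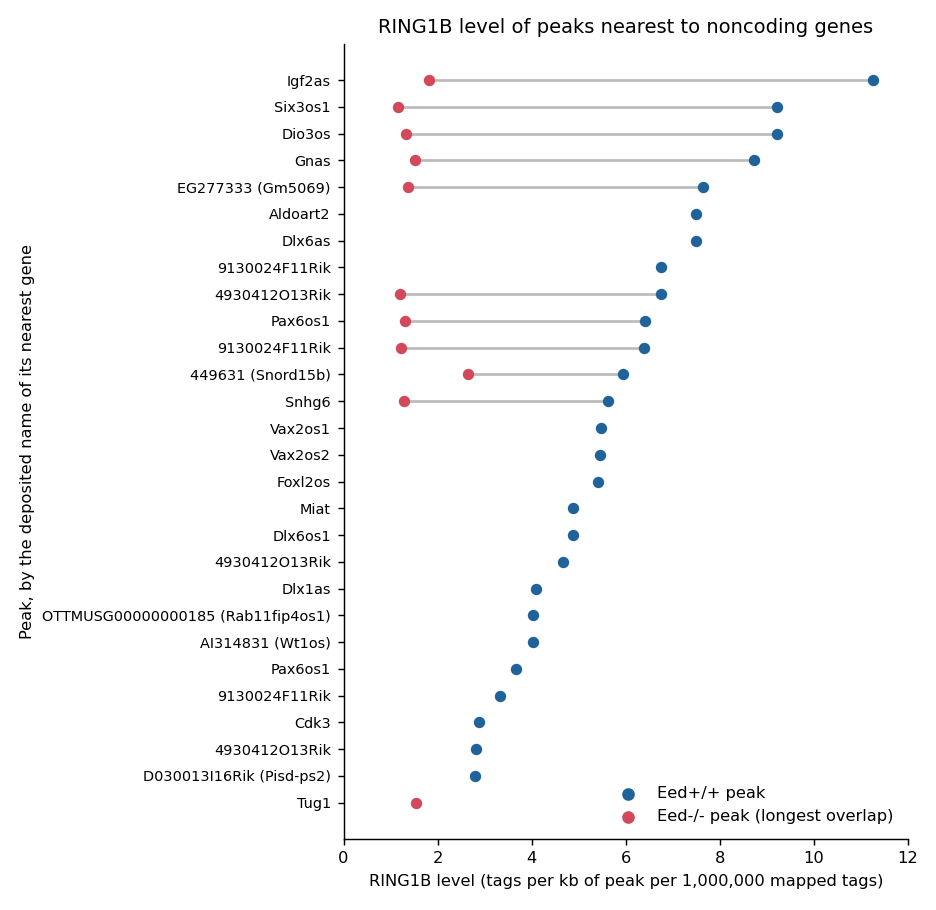
RING1B level (x axis, tags per kb of peak per 1,000,000 mapped tags) of each of the 27 Eed+/+ member peaks (blue), of the Eed-/- peak that overlaps it most (red, joined by a grey line), and of the Tug1 peak found in Eed-/- only. The 10 joined pairs are all lower in Eed-/- on this scale, with ratios from 0.125 to 0.447, whereas scaled by the tags in all peaks of each list 9 of these pairs are higher in Eed-/-; 17 Eed+/+ peaks have no Eed-/- counterpart.

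Of the 27 Eed+/+ members 10 were overlapped by an Eed-/- peak over at least 1 bp, which is 37% (exact binomial 95% interval 19.4 to 57.6%). Over the whole list 53.1% of the Eed+/+ peaks were overlapped, a share within that interval. In the other direction 11 of 12 Eed-/- members were overlapped by an Eed+/+ peak, which is 91.7% (interval 61.5 to 99.8%), beside 73.1% of the whole Eed-/- list. Both list values thus lie within the counting intervals of the member shares. The Eed+/+ share was 22.2% (6 of 27) when the overlap had to cover at least 50% of both peaks, and also when only peaks with an FDR up to 1% were used.

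In each of the 10 overlapping pairs the level per mapped tag was lower in Eed-/-, a direction that turned in 9 of them when scaled by tags in all peaks, and per mapped tag it was lower in 100% of the 1247 pairs of the whole lists. In a bulk sample, binding in fewer cells and less binding per cell cannot be told apart. The median ratio of Eed-/- to Eed+/+ over the 10 pairs was 0.179 (interval 0.144 to 0.228), beside 0.225 over all pairs. When tags per kb were instead divided by the total tags in all peaks of the list, the direction turned and the median ratio became 1.26 for the members and 1.58 for all pairs, with 1 of 10 and 8.66% of pairs lower in Eed-/-. The ratio of the deposited fold enrichment over background was 0.235 for the members and 0.248 for all pairs, with 10 of 10 and 99.8% of pairs lower in Eed-/-. The Eed+/+ peak was wider than its partner in all 10 member pairs, against 950 of 1247 pairs in all, and 8 of the 10 Eed-/- peaks lay wholly inside it, against 716 of 1247.

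Igf2as had the highest Eed+/+ level of all members, 11.3, which is at percentile 97.1 of the list. It is transcribed opposite to Igf2, an imprinted fetal growth factor. The Eed+/+ peak (chr7:149842796-149847833) held 953 tags over 5038 bp at a fold enrichment of 41.1, and its midpoint was 283 bp upstream of the exon 1 start of Igf2as and 80 bp from the nearest Igf2 start. The Eed-/- peak (chr7:149844046-149847344) held 421 tags over 3299 bp at a level of 1.81 and a fold enrichment of 6.01. The Eed-/- peak lay wholly within the Eed+/+ peak and gave a ratio of 0.161 per mapped tag.

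Six3os1, the opposite strand transcript of the forebrain and eye homeobox gene Six3, had the widest peak in the whole Eed+/+ list. This peak (chr17:86006833-86024983) spanned 18151 bp, held 2814 tags at a level of 9.22 and a fold enrichment of 60.9, and covered the starts of both Six3os1 and Six3. In Eed-/- the same span held 3 separate peaks. A pair of them was named Six3os1, of 3583 bp and 2687 bp with levels of 1.16 and 1.09, and the third was named Six3, of 2431 bp with a level of 1.48. The domain was therefore broken into smaller called segments in Eed-/-. For the segment of longest overlap the ratio was 0.125 per mapped tag, the lowest of the 10 pairs, or 0.881 when scaled by tags in all peaks. These 2 scales differ by a constant factor and rank the pairs alike. By fold enrichment the lowest ratio, 0.0635, was at 4930412O13Rik, with 68.2 in Eed+/+ and 4.33 in Eed-/-.

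Pax6os1 gave a similar pattern beside Pax6, a paired box factor of eye and brain. Its wide Eed+/+ peak (chr2:105506352-105517545) covered 11194 bp with 1208 tags at a level of 6.42. In Eed-/- 3 peaks lay inside it, a Pax6os1 peak of 1553 bp at a level of 1.14 and a pair of Pax6 peaks of 1871 bp and 1231 bp at levels of 1.31 and 1.63. A second Eed+/+ peak 9468 bp downstream of the Pax6os1 start, with a level of 3.66, had no counterpart. At Gnas, the imprinted locus of the stimulatory G protein alpha subunit, the Eed+/+ peak (chr2:174152127-174155593) had a level of 8.73, and 2 Eed-/- peaks overlapped it at levels of 1.49 and 1.52. Over all pairs, 68 of 1247 Eed+/+ peaks were overlapped by 2 or more Eed-/- peaks, and Six3os1, Pax6os1 and Gnas are the 3 members among them.

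4930412O13Rik is a long noncoding RNA beside Gata3, a zinc finger factor of lymphoid and epithelial lineages, and 9130024F11Rik is another long noncoding RNA. Each had 3 Eed+/+ peaks and 1 Eed-/- peak. At 4930412O13Rik the Eed+/+ levels were 6.74, 4.67 and 2.82 at distances of 260, 8689 and 15033 bp downstream of the start, and the Eed-/- peak, with a level of 1.20, overlapped the first alone. At 9130024F11Rik the Eed+/+ levels were 6.39, 6.75 and 3.32 at 37 bp upstream and 5750 and 11054 bp downstream, and again the Eed-/- peak, with a level of 1.22, overlapped the one at the start. At both genes the peaks farther downstream were called in Eed+/+ cells alone. Those downstream of 4930412O13Rik lie beyond its deposited end, and the nearer of them holds a start of Gata3. The summit windows of the 3 9130024F11Rik peaks held 18, 10 and 1 CG in the same order, and those of the 3 4930412O13Rik peaks 18, 5 and 4.

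The other shared members lay farther from the named gene or beside a pseudogene. Dio3os runs opposite to Dio3, the deiodinase that inactivates thyroid hormone, in an imprinted cluster, but the peak named for it was 89726 bp downstream of its start in Eed+/+. There the Eed+/+ level was 9.21 and the Eed-/- level 1.32. The peaks named EG277333, a transcribed pseudogene, had summit windows in coding sequence of Itpkb, an inositol phosphate kinase, in both genotypes. The Eed+/+ peak also held an Itpkb start. Their levels were 7.64 in Eed+/+ and 1.38 in Eed-/-. Snhg6, a host gene of small nucleolar RNAs, was 23558 bp from its peak, with levels of 5.62 and 1.28.

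The Snord15b peak, deposited as 449631, had the highest ratio of the 10 pairs. Snord15b is a box C/D small nucleolar RNA, of the class that guides methylation of ribosomal RNA. Its peak (chr7:106616149-106618532 in Eed+/+) was 10876 bp downstream of its start, within the gene Klhl35 at the summit. It held 238 tags in Eed+/+ and 430 in Eed-/-, giving levels of 5.94 and 2.65 and a ratio of 0.447 per mapped tag, or 3.15 when scaled by tags in all peaks, at percentile 95.3 among all 1247 pairs. It had the densest member summit, with 38 CG in 200 bases in Eed+/+ and 36 in Eed-/-, and the highest fold enrichment of the Eed-/- members, 9.64.

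Tug1 was the 1 Eed-/- member that no Eed+/+ peak overlapped. Tug1 is a widely expressed long noncoding RNA that shares a divergent promoter with Morc2a. The peak (chr11:3548954-3550101) held 125 tags over 1148 bp, with a level of 1.55, a fold enrichment of 5.49 and an FDR of 1.71%, the highest FDR of the 12 Eed-/- members. Its midpoint was 717 bp upstream of the Tug1 start and 30 bp from the Morc2a start. Read at the depth of the Eed+/+ library, a peak needs 418.4 Eed-/- tags to match 100 Eed+/+ tags, the threshold of the peak calling, and 2 of the 12 Eed-/- members (Igf2as and Snord15b) passed it, beside 120 of all 1810 Eed-/- peaks. Absence of binding at Tug1 in Eed+/+ and the lower depth of that library cannot be told apart.

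The 17 Eed+/+ members without an Eed-/- peak had levels from 2.80 to 7.50, median 4.67, and the 10 with one from 5.62 to 11.3, median 7.19. These ranges overlap between 5.62 and 7.50. Over the whole list the corresponding medians were 4.03 and 5.78, so the members without a counterpart lay at the lower end as the other peaks did. Their tag numbers ran from 113 to 787, median 225, against 184 to 2814, median 543.

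Among these 17 peaks, genes of the Dlx family of forebrain and limb homeobox factors were represented by 3. Dlx6as had 563 tags at a level of 7.48 and a fold enrichment of 39.0, on a peak of 4475 bp (chr6:6812089-6816563) that covered a Dlx6 start. Dlx6os1 had 368 tags at 4.87, with its peak 5477 bp upstream. Dlx1as had 126 tags at 4.10, with its peak 3249 bp downstream of its start, within an intron. No Eed-/- peak overlapped any of the 3.

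Vax2os1 and Vax2os2, on the strand opposite to the eye homeobox gene Vax2, had adjacent peaks of nearly equal level, 5.47 and 5.46. The Vax2os2 peak (chr6:83658020-83666597) spanned 8578 bp with 787 tags and covered the starts of Vax2os2 and Vax2, and was the largest Eed+/+ member without an Eed-/- peak by tags and by width. Foxl2os, opposite to the ovarian forkhead gene Foxl2, had 174 tags at 5.41. AI314831 (Wt1os), opposite to the Wilms tumour gene Wt1, had 113 tags at 4.02, the fewest tags of the Eed+/+ members. The start of AI314831 itself lay inside peaks of both lists that carry another name. Miat, a long noncoding RNA of neural tissue and retina, had 230 tags at 4.87, with its midpoint 934 bp downstream of its start. OTTMUSG00000000185 (Rab11fip4os1) had 122 tags at 4.02 on a peak 88536 bp upstream of its start.

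The remaining 3 of the 17 are named for sequences related to coding genes. Cdk3, a pseudogene of a cyclin dependent kinase in common laboratory strains, had 190 tags at 2.87 on a peak of 3935 bp, 6252 bp downstream, with its summit in a coding exon of Evpl. The peaks named Aldoart2 and D030013I16Rik (Pisd-ps2) stood apart from the other 25 in composition. Their observed to expected CpG ratios were 0.184 and 0.0757, whereas the next lowest member had 0.333, and their summit windows held 0 and 1 CG. They also had the lowest fold enrichments of the Eed+/+ members, 5.02 and 3.5, and the highest FDR values, 0.45% and 0.08%, and they lay 26474 bp upstream and 73978 bp downstream of the named gene. Aldoart2 is an aldolase retrogene of the testis. Without this pair 10 of 25 members, 40%, were overlapped by an Eed-/- peak.

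**Figure D2:**
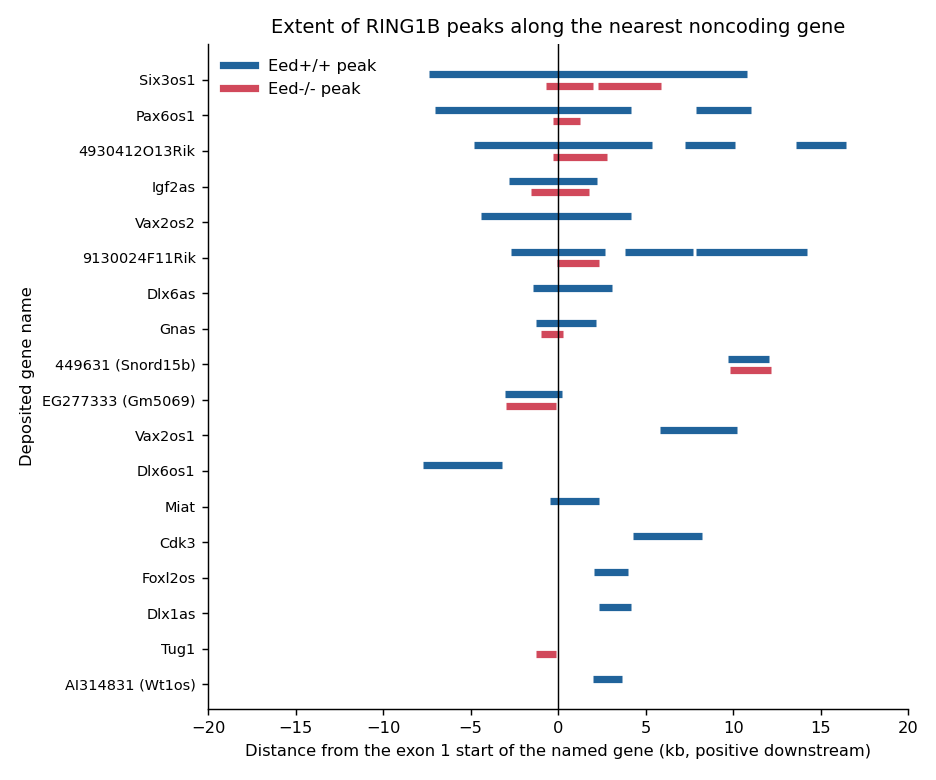
Extent of each member peak along the gene it is named for (x axis, kb from the exon 1 start, positive downstream; Eed+/+ blue, Eed-/- red), for the 18 genes with a peak midpoint within 20 kb. At 4930412O13Rik, 9130024F11Rik and Pax6os1 the Eed-/- peak lies at the start while further Eed+/+ peaks lie downstream; the 5 genes beyond 20 kb are Snhg6, OTTMUSG00000000185, Aldoart2, Dio3os and D030013I16Rik.

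In Eed+/+ members lay farther from the named start than peaks in general. The deposited distance runs from the midpoint of the peak to the start of exon 1, and its median absolute value was 5477 bp over the Eed+/+ members (interval 1415 to 10876 bp), beside 928 bp over all Eed+/+ peaks with a distance. In Eed-/- it was 1193.5 bp (interval 464 to 10996 bp), beside 744.5 bp, which is inside that interval. In Eed+/+ 7 of 27 members, 25.9%, were within 1 kb, against 51.3% of all peaks, and 19 of 27 within 10 kb, 70.4%, against 80.3%. In Eed-/- 5 of 12 were within 1 kb, 41.7%, against 58.2%. With 1 peak per gene name the Eed+/+ median was 2927.5 bp, and without the Aldoart2 and D030013I16Rik peaks it was 3249 bp, so the value depends on which peaks are counted.

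The named noncoding gene was often not the nearest start. The exon 1 start lay within the peak for 10 of 27 Eed+/+ and 6 of 12 Eed-/- members. A start of a GENCODE coding transcript lay within the peak for 10 of 27, 37%, against 70.4% of all Eed+/+ peaks, and within 6 of 12, 50%, against 72.4% in Eed-/-. Members were chosen for a noncoding nearest gene. Lower shares at coding starts or in coding sequence therefore follow in part from the rule and are not a result about the members. A coding start was nearer to the midpoint than the deposited noncoding start for 11 of 27 and 6 of 12. The nearest coding gene was on the strand opposite to the noncoding gene for 22 of 27 and 10 of 12, counted per peak. No such share was computed over the lists, and many members are named as antisense or opposite strand transcripts. The deposited location was inside a gene for 14 of the 27 Eed+/+ members, 51.9% against 64.5% of the list, and in coding sequence for 1, 3.7% against 23.5%. This deposited label does not describe the summits. In the annotation, Eed+/+ summit windows of EG277333, Dlx6as, Snord15b, Cdk3, Six3os1 and the first 4930412O13Rik peak overlapped coding sequence. That share was not computed over the list.

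Eed+/+ members were somewhat wider than the list, with a median of 3467 bp (interval 2807 to 5038 bp) beside 2665 bp, and Eed-/- members were close to it, at 2471 bp (interval 1553 to 3103 bp) beside 2155 bp. In all, members covered 128396 bp in Eed+/+ and 28375 bp in Eed-/-. Of the 27 Eed+/+ widths the smallest was 1341 bp, at Aldoart2, and 3 exceeded 10 kb, at Six3os1, Pax6os1 and 4930412O13Rik. The widest Eed-/- member was 3583 bp, also at Six3os1.

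**Figure D3:**
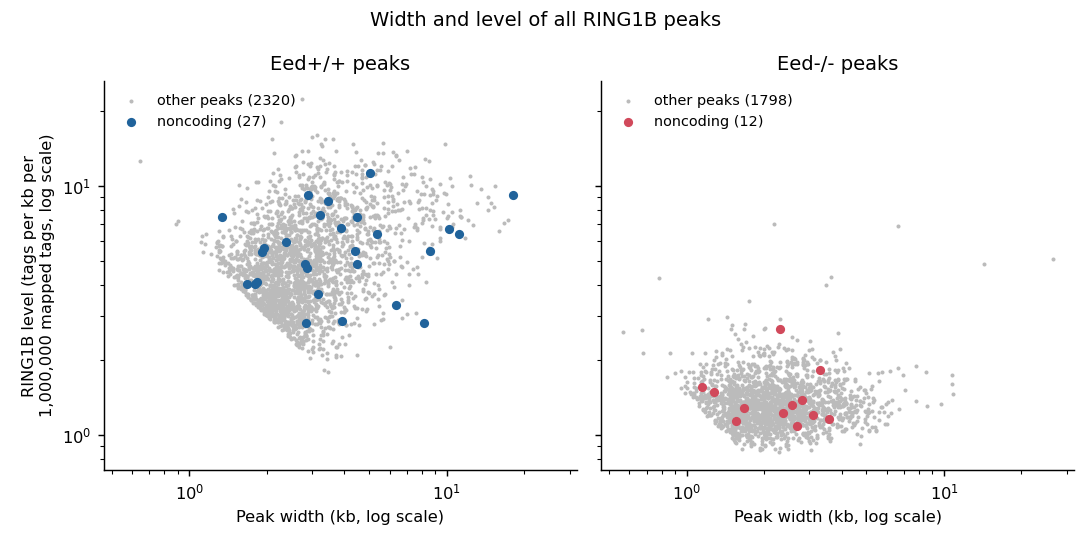
Width (x axis, kb, log scale) and RING1B level (y axis, tags per kb per 1,000,000 mapped tags, log scale) of every peak in the Eed+/+ list (left) and the Eed-/- list (right), with noncoding members in colour. Members spread over the cloud of other peaks in both lists, from 1341 to 18151 bp in Eed+/+ and from 1148 to 3583 bp in Eed-/-; the empty lower left corner reflects the threshold of 100 tags.

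CpG islands were less common under Eed+/+ members than under the list. Candidate segments were cut from the sequence by a running score of 17 per CG and -1 per other base. A segment was an island if, as a whole, it had at least 200 bp, 50% GC and an observed to expected CpG ratio of 0.6. Such an island was overlapped by 18 of 27 Eed+/+ members, 66.7% (interval 46 to 83.5%), against 94% of all Eed+/+ peaks. All 12 Eed-/- members lay on one (interval 73.5 to 100%), against 95.2% of that list. The summit itself was on an island in 14 of 27, 51.9%, against 80%, and in 9 of 12, 75%, against 83.6%. The list value was outside the counting interval of the Eed+/+ share and inside that of the Eed-/- share. All 9 Eed+/+ members off an island were without an Eed-/- peak. The same share was not computed for the whole Eed+/+ list, so it is not known to be particular to the members. These 9 are the most downstream 9130024F11Rik peak, both downstream 4930412O13Rik peaks, Aldoart2, D030013I16Rik, Dlx1as, AI314831, Dlx6os1 and Foxl2os. Being off an island refers to whole scored segments, not to the summit window. The summit windows of Foxl2os, AI314831 and Dlx6os1 still held 20, 17 and 12 CG, at 65%, 67% and 62.5% GC.

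The count of CG at the summit gave the same order. Its median was 18.5 per 200 bases over the 10 overlapped Eed+/+ members (12 to 38) and 10 over the 17 others (0 to 27), with overlapping ranges, beside 20 and 15 in the whole list. The Eed-/- members had a median of 17 (4 to 36), beside 19. Median GC over the whole peak was 53.8% in Eed+/+ members and 60.3% in Eed-/- members, beside 58.3% and 60.9% in the lists. Whether composition and overlap depend on each other was not tested.

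**Figure D4:**
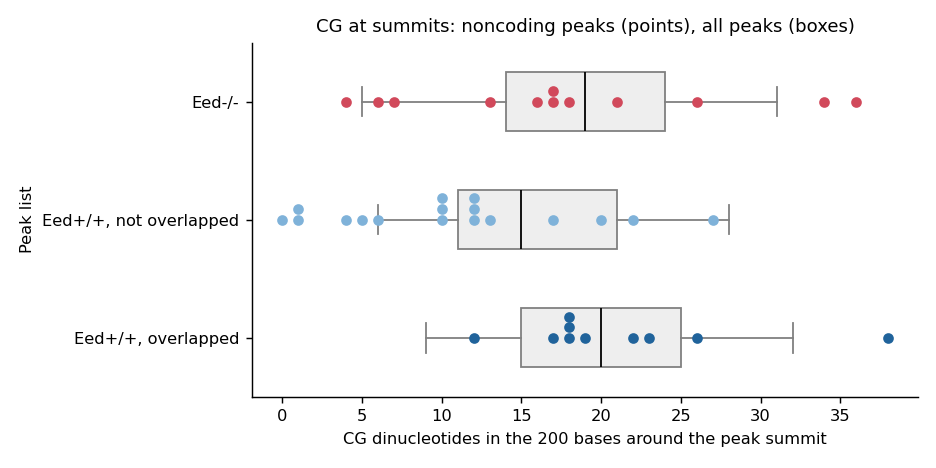
CG dinucleotides in the 200 bases around the summit (x axis) of each member (points) and of all peaks (boxes, quartiles with the median as a line and whiskers from percentile 5 to percentile 95), for Eed+/+ peaks with and without an overlapping Eed-/- peak and for Eed-/- peaks. The 10 overlapped members hold 12 to 38, the 17 others 0 to 27, and the 12 Eed-/- members 4 to 36.

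Although no peak was named for a microRNA, microRNA genes lay inside peaks that were named for a neighbouring gene. Annotation of the same build (GENCODE M1) holds 1577 microRNA genes on these chromosomes. Of these 37, 2.35%, lay in an Eed+/+ peak and 18, 1.14%, in an Eed-/- peak, with 16 in both, so 39 in all. One of them, Mir193, lay in a member peak, that named OTTMUSG00000000185 (chr11:79524299-79526102), at chr11:79525471-79525536 on the plus strand. No other microRNA gene lay in a member peak of either genotype. This search of the annotation was added after the peak lists were seen. By sequence 20 of the 39 matched a RefSeq hairpin on the same chromosome.

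The mature sequences below are RefSeq's (GRCm38.p6) and are shown because 3 pairs of them share the seed, bases 2 to 8 from the 5′ end, which is in capitals and sets target recognition. Mir193 is shown as the microRNA inside a member peak.
miR-193a-3p: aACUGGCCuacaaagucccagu
miR-193a-5p: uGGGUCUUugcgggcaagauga
miR-10a-5p: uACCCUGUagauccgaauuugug
miR-10b-5p: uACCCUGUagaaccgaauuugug
miR-196a-5p: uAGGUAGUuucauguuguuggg
miR-196b-5p: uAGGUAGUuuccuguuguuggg
miR-132-3p: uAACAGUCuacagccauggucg
miR-212-3p: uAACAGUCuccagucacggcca
miR-9-5p: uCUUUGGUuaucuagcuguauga
The pair miR-10a and miR-10b and the pair miR-196a and miR-196b lie within the Hox clusters, and miR-132 and miR-212 are neighbours in 1 neuronal transcript. Mir10a and Mir10b lay in Eed+/+ peaks named Hoxb4 and Hoxd4, with levels of 5.15 and 4.10, and in no Eed-/- peak, although an Eed-/- peak overlapped another stretch of the Hoxd4 peak. Mir196a-2, in the Hoxc9 peak at 4.15, was likewise outside the Eed-/- list, while Mir196b lay in the Hoxa9 peak of both, at 10.1 and 1.29. Mir132 and Mir212 shared the Hic1 peak, at 3.79 in Eed+/+ and 1.17 in Eed-/-. Of the 3 seed pairs, the miR-196 pair alone was split, with 1 of its genes in an Eed-/- peak and the other outside the list.

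Among lists of microRNAs grouped by tissue, Hox cluster microRNAs had the highest share, with 5 of 6 genes in an Eed+/+ peak and 2 in an Eed-/- peak. The sixth, Mir196a-1, was 4067 bp from the nearest Eed+/+ peak. Neural microRNAs had 5 of 12 in Eed+/+ and 3 in Eed-/-. These were Mir9-3 in the Polg peak (6.03 and 1.35), Mir124a-1 and Mir124a-3 in the Kif13b and Ythdf1 peaks (4.43 and 5.77), and Mir132 with Mir212. The list was drawn up by name and leaves out AC044864.1, whose hairpin matched miR-9b. That gene lay in the Rhbg peak of both genotypes (8.04 and 1.47). Eed-/- peaks overlapped the Kif13b and Ythdf1 peaks but ended 2630 and 212 bp short of Mir124a-1 and Mir124a-3. Epithelial microRNAs had 2 of 8, Mir203 (3.45 and 1.10) and the islet microRNA Mir375 (4.64, Eed+/+ alone). None of 34 pluripotency and cell cycle microRNAs and none of 16 of mesoderm and muscle lay in a peak of either list, where the shares over all microRNA genes, 2.35% and 1.14%, would give fewer than 1 in each.

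Long noncoding genes of the annotation showed how far the name of a peak depends on the nearest start. A list meant for antisense and long noncoding RNAs of developmental loci was filled by name, not by locus. It took names ending in os or as, with a few named RNAs such as Sox2ot. Of the 18 genes found, 11 started inside an Eed+/+ peak and 4 inside an Eed-/- peak. Over all 5397 annotated long noncoding and small nucleolar RNA genes, 4.91% and 2.96% did. Nespas is also in the imprinted list below. Only 3 of the 11, Igf2as, Pax6os1 and Six3os1, start in a peak that carries their own name. Vax2os1 started in the Eed+/+ peak named Vax2os2, which RefSeq now counts as the same gene. Emx2os started in a peak named Emx2, at 11.3 in Eed+/+ and 1.39 in Eed-/-, and Hoxa11as in one named Hoxa11, at 7.52, with the nearest Eed-/- peak 354 bp away. Nkx2-2as and Hoxb3os started in peaks named Nkx2-2 and Hoxb2, at 10.1 and 8.94, both Eed+/+ alone.

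Dio3os and Foxl2os, whose member peaks were described above, also fall in this class. The annotated start of Dio3os was inside a different Eed+/+ peak, named Dio3, with 926 tags at a level of 8.88, and the nearest Eed-/- peak was 88302 bp away. That of Foxl2os was inside the Foxl2 peak, with 1247 tags at 12.1, against 174 tags in the peak named Foxl2os. The peak at the promoter of each was thus larger than the member peak that bears its name by tags. Of 8 RNAs listed as imprinted or of X inactivation, a list that leaves out the imprinted Igf2as and Dio3os counted above, H19, Meg3, Rian, Mirg, Airn, Nespas, Xist and Tsix, none started in a peak of either list. Nespas was nearest, at 2359 bp from an Eed+/+ peak and 2289 bp from an Eed-/- peak, and Xist was 160061 and 716317 bp away. None of 9 housekeeping long RNAs (Malat1, Neat1 and 7 Snhg genes) started in a peak. At 4.91% and 2.96% over all long noncoding genes, a count of 0 in lists of this size is close to the background.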

How the data were processed

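RING1B ChIP-seq libraries were sequenced as single-end reads. The authors mapped the tags to mm9 with bowtie, keeping unique positions, called peaks with MACS at an FDR under 2% and over 100 tags, and assigned the nearest gene with CisGenome and custom scripts. The tool versions and the library that MACS took as control were not given in the sources used here. Each of the 2 deposited lists gives, per peak, a raw tag count, the fold enrichment (a ratio over background), the FDR in percent, the summit, the nearest gene and its distance. The deposited flags of overlap between genotypes and with histone marks are the authors' comparisons and were not used. Unique mapping leaves repeats and recent gene copies, pseudogenes among them, with fewer tags.

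Tag counts were divided by peak length and by the mapped tags of the library, as stated in the study's methods, since the depths differ and the 3 Eed-/- samples, numbered as replicates in the labels and called lanes in the methods, gave 1 list. At equal binding the deeper Eed-/- library passes the tag threshold more easily. Peaks of the genotypes were taken to overlap at 1 bp or more, and among several Eed-/- peaks under an Eed+/+ peak the one sharing most bases was its partner. CpG islands, CG counts and sequences were read from NCBIM37 and gene starts from GENCODE M1, both of the build of the lists. Intervals of shares are exact binomial at 95%. No test was made, because each genotype has 1 list. The members, and the gene lists, were chosen with earlier results of these data known. Full values were set to be given for the members of highest tags per kb, those without a counterpart and listed genes. The overlap and island searches were tested on simulated data. Alternatives changed the overlap rule, the FDR, the tag threshold at equal depth, the scaling, the island definition, the distance limit, the count of peaks per gene and the chromosomes used, and left out peaks of low CpG ratio, the last chosen after the data were seen. Python 3.11.15, numpy 2.4.6, scipy 1.17.1, numba 0.67.0 and matplotlib 3.10.9 were used. Some items are not reported here.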

Additional observations from a re-analysis of the deposited data

How the results depend on the processing

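Of 32 alternative values for 8 results, 26 stayed within the counting interval of the reported value, 5 left it and 1 reversed. Such intervals are wide, and 4 of the 26 values moved by over 1.5 times. The Eed+/+ overlap share fell from 37% to 22.2% at 50% overlap and at an FDR up to 1%, and the Eed+/+ median distance from 5477 to 2927.5 bp with 1 peak per gene name and to 3249 bp without the peaks of low CpG ratio. The share of Eed-/- members overlapped by an Eed+/+ peak, 91.7%, was 41.7% when the overlap had to cover at least 50% of both peaks, since the Eed+/+ peaks are wider. It was 100% when both lists were limited to peaks whose FDR did not exceed 1% (5 of 5) and 100% among Eed-/- peaks of over 100 tags at the Eed+/+ depth (2 of 2). The median ratio of Eed-/- to Eed+/+ level, 0.179, was 0.304 over the 2 pairs left at equal depth and 0.235 for fold enrichment, and it reversed to 1.26 when scaled by the tags in all peaks (739042 in Eed+/+ and 439317 in Eed-/-). The direction of the difference thus depends on the scaling. Per mapped tag and by fold enrichment all 10 pairs were lower in Eed-/-. Dividing by the tags in all peaks takes out any difference common to the whole list. By conventional ChIP at selected target loci, the study reported greatly reduced RING1B occupancy in Eed-/- cells. From its ChIP-seq, at example loci such as Irx2 and Msx1, it also described much lower RING1B binding in Eed-/-. It sequenced more Eed-/- reads to compensate. Which scale is nearer to binding was not tested here. Alternatives for microRNA genes alone gave no value, because no peak carries such a name, and leaving out X and Y changed nothing because no member lies there. No paired analysis was possible because each genotype has 1 peak list. With 1 list per genotype, the depth of the Eed+/+ library limits what could be called there, and the spread between cultures is unknown.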

Other observations

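More noncoding transcripts started inside peaks than the names show. Of 1273 annotated lincRNA genes, 160 started inside an Eed+/+ peak, 95 inside an Eed-/- peak and 79 inside both. Of 2572 genes annotated as processed transcripts, 104, 65 and 51 did. These are counts of starts within peaks named for any gene, and they include members such as Six3os1 and Igf2as. Over all 5397 annotated long noncoding and small nucleolar RNA genes, 4.91% started in an Eed+/+ peak and 2.96% in an Eed-/- peak. The share over coding genes was not computed.

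A pair of microRNA genes lay in an Eed-/- peak but in no Eed+/+ peak, Mir1900 in the peak named Icam5, at a level of 1.35, and Mir1904 in the peak named Rab3c, at 1.11 (tags per kb per 1000000 mapped tags). Both were chosen after their values were seen.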
